A study of Mus musculus with 8 samples.

Results

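CCT, also called TRiC, is the chaperonin of the eukaryotic cytosol, a double ring in which newly made proteins fold in a closed chamber with the use of ATP. Each ring is built from 8 different subunits, which are encoded by Tcp1, Cct2, Cct3, Cct4, Cct5, Cct6a, Cct7 and Cct8. Its best known clients are actin and tubulin, which cannot fold without it, and many WD40 repeat proteins. Prefoldin hands such clients over to the ring, and phosducin-like proteins act on it as cochaperones. In mouse T cells Cct8 is known to be needed for maturation and function. The 8 subunit genes were taken by their symbols from 49315 genes counted in 8 RNA sequencing libraries.

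There were 4 Carm1 KO and 4 Control KO libraries. Both came from CD8 T cells of OT-I mice, whose transgenic receptor recognises an ovalbumin peptide, and the cells are labelled CD45.1, a congenic marker. In the Carm1 KO group the crRNA for Cas9 targeted Carm1, which encodes an arginine methyltransferase and transcriptional coactivator, and in the Control KO group, also labelled WT, it targeted LacZ, a bacterial gene. In the sample protocols, CD8 T cells selected as naive were edited by nucleofection, kept in medium with 50 ng/ml interleukin-15 plus interleukin-7 at 2.5 ng/ml, and collected 7 days after editing. Loss of the Carm1 protein was seen by western blotting, per the labels. The series text instead speaks of co-culture with B16F10-Ova tumor cells for both groups. The 4 libraries of a group are described as technical replicates, and the number of animals or cultures behind them is not given in the sources used here, so a p-value here reflects the scatter among these libraries alone, and that scatter may be technical.

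The libraries held 37556330 to 39988442 counts in Carm1 KO and 38768760 to 41439998 counts in Control KO, where 3 counts correspond to 0.0724 to 0.0799 CPM (read counts scaled to equal totals, for this floor without the TMM factors used below). Carm1 itself averaged 32.8 ± 0.493 CPM in Carm1 KO and 95.9 ± 1.04 CPM in Control KO (SD, n = 4 each), a partial check of the labels since an edit need not remove the RNA. All 6 CD8 T cell markers (Cd3e, Cd3d, Cd3g, Cd8a, Cd8b1 and Trac) were present and higher in Carm1 KO, with a summed level of 5632 to 5809 CPM in Carm1 KO and 3670 to 3755 CPM in Control KO. The 5 myeloid markers (Lyz2, Csf1r, Cd68, Itgam and Adgre1) were all lower in Carm1 KO, at 4.09 to 5.17 CPM summed in Carm1 KO and 101 to 105 CPM in Control KO. The melanoma markers Tyr, Dct and Tyrp1 had no count in any library, Mlana had 1 count in all, and Pmel was the only one of the 5 with more, so that the list summed to 11.8 to 13.0 CPM in Carm1 KO and 3.24 to 3.58 CPM in Control KO. The 5 B cell markers summed to 18.6 to 20.4 CPM in Carm1 KO and 23.3 to 24.4 CPM in Control KO, with 2 higher, 1 lower and 2 not tested. These sums hide opposite changes. Igkc averaged 0.306 CPM in Carm1 KO and 17.5 CPM in Control KO. Cd79b averaged 17.1 and 5.71 CPM and Cd79a 1.93 and 0.460 CPM in the same order. Both CD4 T cell markers (Cd4, Foxp3) were higher, at 2.82 to 3.52 CPM summed in Carm1 KO and 1.82 to 2.29 CPM in Control KO, and both natural killer cell markers (Ncr1, Klrb1c) were lower, at 1.00 to 1.56 CPM in Carm1 KO and 3.31 to 3.80 CPM in Control KO. The part of other cell types in the results was not tested. In bulk RNA, fewer cells of a type and less RNA per cell cannot be told apart.

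All 8 CCT subunit transcripts were lower in Carm1 KO than in Control KO cells, but by unequal amounts. Cct3 and Cct6a fell the most, 4.55-fold and 4.50-fold, followed by Cct8 (3.23-fold), Tcp1 (2.56-fold), Cct5 (2.27-fold) and Cct7 (1.96-fold), and Cct4 and Cct2 fell the least, 1.69-fold and 1.66-fold. Summed over the 8 genes, the level was 2067 ± 36.2 CPM in Carm1 KO and 5000 ± 27.2 CPM in Control KO (SD, n = 4 each). The 8 genes took 0.216% to 0.220% of all counts in the Carm1 KO libraries and 0.470% to 0.475% in the Control KO libraries. All CPM here are scaled by TMM factors, which adjust for differences in composition between libraries.

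The fall of the CCT genes took place among very many changes. Each of the 8 passed an adjusted p under 0.05 as lower in Carm1 KO (edgeR quasi-likelihood test), and so did 43.2% of 14970 tested genes, while 44.5% passed as higher and 87.7% in either direction. Higher calls made up 50.8% of all calls after TMM scaling, but 61.0% after scaling by upper-quartile factors, under which all 8 CCT genes were still lower (log2 fold changes of -1.97 to -0.51). The 4 Carm1 KO libraries lay below all 4 Control KO libraries for each of the 8, as they did for 41.2% of tested genes, while 42.2% lay wholly above and 83.4% did not overlap either way. A fall of at least 2-fold was found for 5 of the 8 against 15.2% of tested genes, and one of at least 4-fold for 2 of the 8 against 5.04%. The median log2 fold change (Carm1 KO over Control KO) of the 8 was -1.27, and that of all tested genes was 0.02. Among 252 other tested genes with a mean level within the range of the members (312 to 551 CPM), the median was -0.27, with 58.7% lower and 19.4% at least 2-fold lower.

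The subunits are described here in the order in which they sit around the ring, as known from the yeast and bovine complexes, beginning with Tcp1. Tcp1 encodes the alpha subunit and takes its name from the t complex of mouse chromosome 17. It had 242, 240, 233 and 245 CPM in the Carm1 KO libraries, against 616, 616, 617 and 612 CPM in the Control KO libraries. The Control KO values lay within a few CPM of each other, and the groups were far apart (log2 fold change -1.36 ± 0.022 SE, adjusted p = 6.6e-39).

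Cct3, for the gamma subunit, had 150, 145, 143 and 145 CPM in Carm1 KO, against 661, 671, 651 and 668 CPM in Control KO. Its change was the largest of the 8 (log2 fold change -2.19 ± 0.023, adjusted p = 1.9e-45), and 4.30% of tested genes had a lower log2 fold change. Its ring neighbour Cct6a, for the zeta subunit, had 115, 114, 109 and 116 CPM in Carm1 KO, against 521, 509, 510 and 500 CPM in Control KO. The groups of Cct6a were as far apart as those of Cct3, with a log2 fold change of -2.17 ± 0.024 (adjusted p = 1.1e-44) that differed from that of Cct3 by less than 1 SE. Cct8, for the theta subunit, had 192, 187, 187 and 192 CPM in Carm1 KO, against 611, 609, 621 and 609 CPM in Control KO, and all Carm1 KO values lay within a few CPM of each other (log2 fold change -1.69 ± 0.022, adjusted p = 2.9e-42).

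On the other side of the ring, Cct7, for the eta subunit, had 356, 346, 345 and 341 CPM in Carm1 KO, against 664, 695, 681 and 674 CPM in Control KO (log2 fold change -0.97 ± 0.022, adjusted p = 1.6e-33). Cct5, for the epsilon subunit, is a gene of hereditary sensory neuropathy in humans. It had 337, 321, 320 and 336 CPM in Carm1 KO, against 738, 752, 753 and 744 CPM in Control KO (log2 fold change -1.19 ± 0.022, adjusted p = 2.1e-36). Cct2, for the beta subunit, had 418, 411, 405 and 425 CPM in Carm1 KO, against 682, 688, 687 and 691 CPM in Control KO. Its log2 fold change of -0.73 ± 0.022 (adjusted p = 1.7e-29) was the smallest of the 8, yet the lowest Control KO library stood well above the highest Carm1 KO library. Cct4, for the delta subunit, had 290, 285, 284 and 297 CPM in Carm1 KO, against 485, 494, 489 and 480 CPM in Control KO (log2 fold change -0.75 ± 0.022, adjusted p = 9.4e-30), which differs from that of Cct2 by little more than 1 SE.

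**Figure D1:**
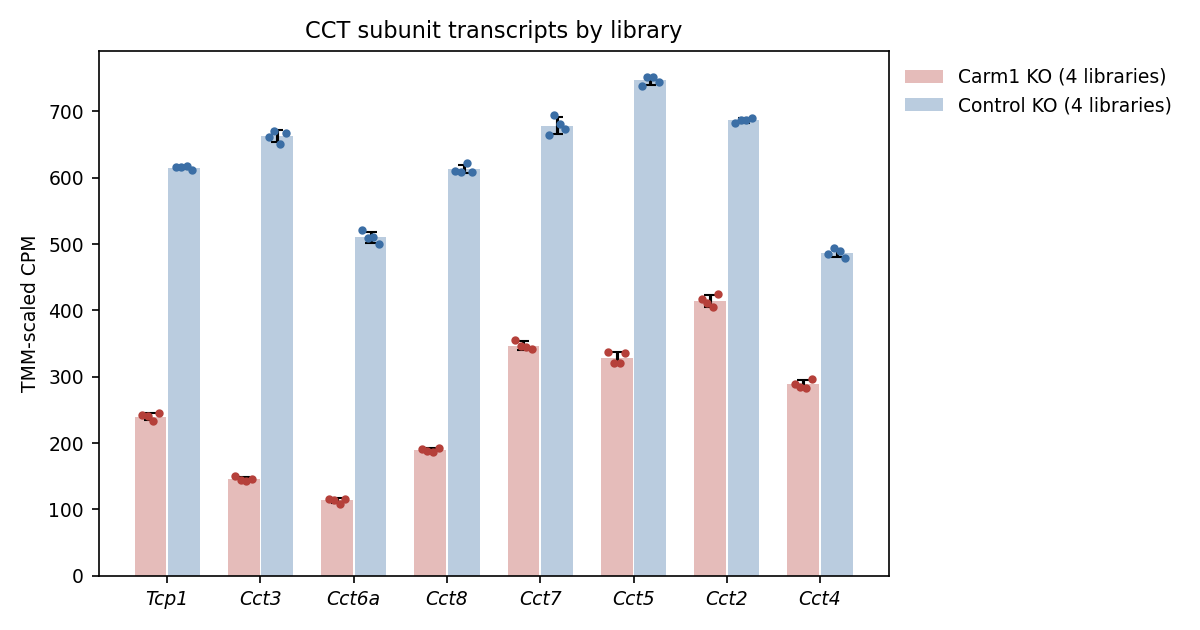
TMM-scaled CPM of the 8 CCT subunit genes in each library (points), with the group mean (bars) and SD (error bars), n = 4 per group, Carm1 KO in red on the left and Control KO in blue on the right of each pair, genes in the order of the ring. Control KO means lie between 487 and 747 CPM, while Carm1 KO means spread from 113 CPM for Cct6a to 415 CPM for Cct2.

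Read around the ring, Tcp1, Cct3, Cct6a and Cct8 lay side by side with log2 fold changes from -2.19 to -1.36, and Cct7, Cct5, Cct2 and Cct4 with -1.19 to -0.73. This order was compared after the values were seen and was not tested, and RNA levels do not show which subunits were assembled. The unequal falls changed the proportions of the subunits. The ratio of the CPM of Cct3 to that of Cct2 within a library, which no scaling factor can move, was 0.358, 0.352, 0.354 and 0.341 in Carm1 KO, against 0.970, 0.976, 0.948 and 0.967 in Control KO. The ratio of Cct6a to Cct4 was 0.393 ± 0.00775 in Carm1 KO and 1.05 ± 0.0182 in Control KO (SD, n = 4 each). Both pairs were chosen after their values were seen, as the ends of the order.

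**Figure D2:**
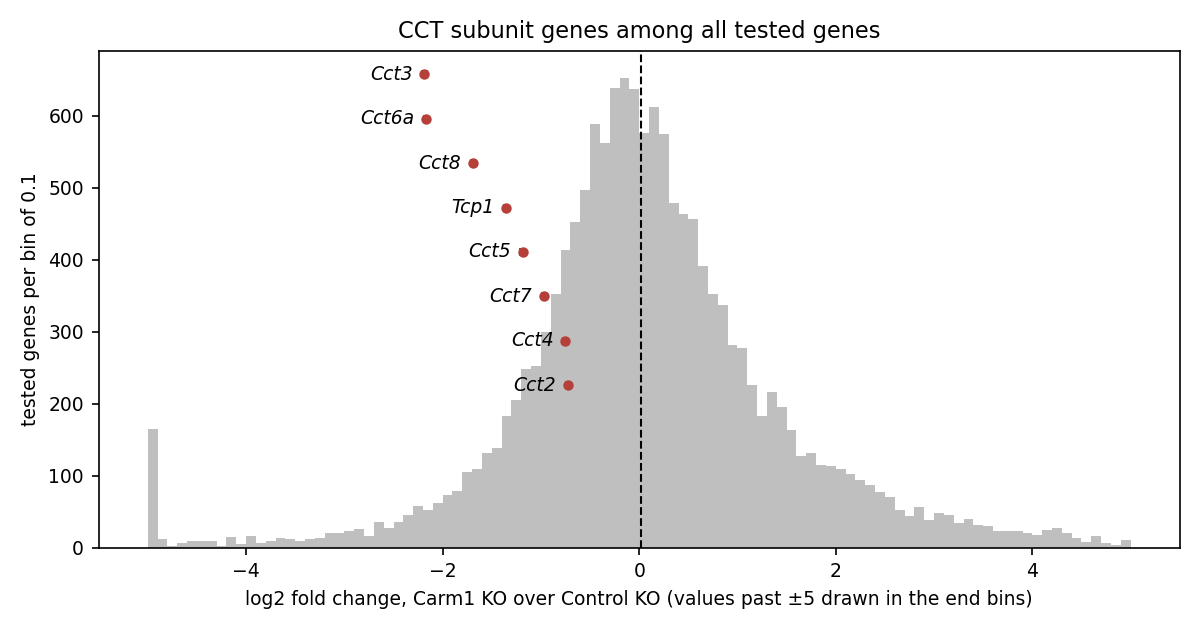
Log2 fold changes of all 14970 tested genes (grey histogram, bins of 0.1, dashed line at the median of 0.02) with the 8 CCT subunit genes (red points, error bars of 1 SE that are smaller than the points, staggered in height only to keep the names apart). All 8 lie left of the median, from -2.19 for Cct3 to -0.73 for Cct2.

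Replicates varied little beside these differences. The coefficient of variation of a member within a group ran from 0.394% (Tcp1 in Control KO) to 2.86% (Cct6a in Carm1 KO). Carm1 KO replicate 3 was the lowest of its group for 7 of the 8 genes, and Carm1 KO replicate 4 the lowest for Cct7. Among the Control KO libraries, replicate 4 was the lowest for 4 genes, replicate 1 for 3 and replicate 3 for 1.

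Levels of different genes can be compared only per length, so CPM per kilobase (kb) was also formed, and each subunit was expressed as its percentage of the sum over the 8. With the exon length given in the files, Cct2 made up 34.6% ± 0.179 of the sum in Carm1 KO and 25.0% ± 0.156 in Control KO. On the same scale Cct4 made up 11.2% ± 0.0981 in Carm1 KO and 8.29% ± 0.0724 in Control KO, and Cct7 8.37% ± 0.200 and 7.16% ± 0.107 in the same order. The shares of Cct3 (3.74% ± 0.0572 in Carm1 KO, 7.45% ± 0.108 in Control KO), Cct6a (5.12% ± 0.0785, 10.1% ± 0.179) and Cct8 (10.0% ± 0.0641, 14.2% ± 0.124) were lower in Carm1 KO, as was that of Tcp1 (7.80% ± 0.0649, 8.75% ± 0.0378). For these 7 subunits the shares of the groups did not overlap. The share of Cct5 was 18.9% to 19.3% in Carm1 KO and 18.9% to 19.1% in Control KO, and there the groups overlapped.

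The order of the subunits depends on the length used. The deposited length counts every base that any transcript of a gene covers, retained introns included, and was 1962 bases for Cct2 and 6370 bases for Cct3, although one reference transcript of each measures 1959 and 1977 bases. With such a transcript for each gene, chosen after the files were seen, the order per kb in Control KO was Cct5, Cct2, Cct3, Cct7, Cct8, Tcp1, Cct6a and Cct4, from 403 ± 3.78 down to 196 ± 2.46 CPM per kb. The closest neighbours in that order were Cct8 and Tcp1, at 256 ± 2.47 and 252 ± 0.992 CPM per kb. In Carm1 KO the same scale gave Cct2, Cct5, Cct7, Cct4, Tcp1, Cct8, Cct3 and Cct6a, from 212 ± 4.55 down to 46.2 ± 1.32 CPM per kb. In both groups neighbouring means lay farther apart than the SD of either gene. By the transcript length Cct3 stood at rank 7 in Carm1 KO and rank 3 in Control KO, and Cct4 at rank 4 in Carm1 KO and rank 8 in Control KO. The highest mean was 4.58 times the lowest in Carm1 KO and 2.06 times in Control KO, and with the deposited length 9.24 times and 3.50 times.

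**Figure D3:**
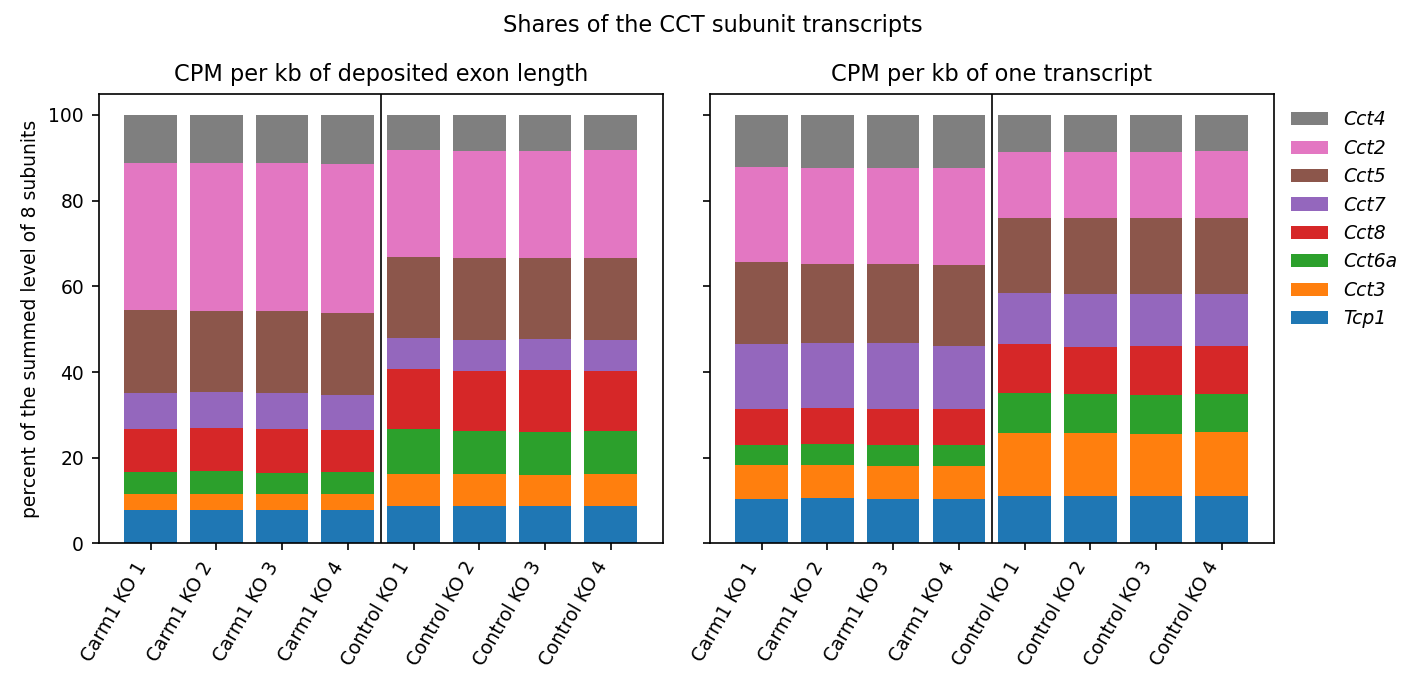
Share of each CCT subunit in the summed CPM per kb of the 8 genes, for each library (4 Carm1 KO libraries left of the line, 4 Control KO libraries right of it), with the deposited exon length (left panel) and the length of one reference transcript (right panel). In both panels the Carm1 KO bars hold more Cct2 (34.6% and 22.4%) and less Cct3 (3.74% and 7.80%) than the Control KO bars (Cct2 25.0% and 15.4%, Cct3 7.45% and 14.7%).

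Part of the exons of 4 members is shared with a gene on the opposite strand, and the library kit does not mark strand. Cct6a (chromosome 5, 129786998 to 129846371, plus strand, mm10) shares 452 of its 3620 exon bases with Psph, a serine synthesis enzyme, which averaged 30.0 ± 1.73 CPM in Carm1 KO and 45.8 ± 1.90 CPM in Control KO. Tcp1 (chromosome 17, 12915701 to 12925067, plus strand) shares 571 of 5030 bases with Acat3, a thiolase gene, at 0.385 CPM in Carm1 KO and 0.549 CPM in Control KO, and 141 with Mrpl18, a mitochondrial ribosomal protein gene, at 49.4 ± 2.05 and 92.1 ± 0.459 CPM in the same order. Cct7 (chromosome 6, 85451514 to 85468475, plus strand) shares 214 of 6778 bases with Pradc1, at 7.79 CPM in Carm1 KO and 17.1 CPM in Control KO. Cct8 (chromosome 16, 87483326 to 87495873, minus strand) shares 192 of 3088 bases with the deubiquitinase gene Usp16, at 49.6 ± 2.27 CPM in Carm1 KO and 67.0 ± 0.861 CPM in Control KO. Each of these neighbours had a lower CPM than its CCT gene, and reads in the shared stretches cannot be assigned to a strand. The small nucleolar RNA genes Snora15 in Cct6a and Gm26130 in Tcp1, on the same strand as their hosts, had at most 2 counts in any library.

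Cct2 (chromosome 10, 117050998 to 117063814, minus strand), Cct3 (chromosome 3, 88297116 to 88321767, plus strand), Cct4 (chromosome 11, 22990519 to 23003780, plus strand) and Cct5 (chromosome 15, 31590800 to 31601847, minus strand) share no exon base with another gene in the files. Sequence copies were looked for with 50-base words of one transcript per member. Of these words, 2.13% in Cct3 and 0.657% in Cct4 also occur in transcripts of another gene, all of them processed pseudogenes, and 0 in Cct2 and Cct5. For Cct3 these were Cct3-ps1, with 3 counts over the Carm1 KO and 5 over the Control KO libraries, and Gm11516, with 1 and 6 in the same order. The shares were larger in Tcp1 (22.2%), Cct6a (16.8%), Cct7 (8.28%) and Cct8 (6.10%), mostly on the reverse strand of the neighbours named above. Of the words of Tcp1, 21.9% occur on the reverse strand of protein-coding transcripts of Acat3. On that of Acat2, an acetyl-CoA acetyltransferase gene, 12.1% occur, in part the same words. Acat2 had 3898 counts in Carm1 KO and 9142 in Control KO, beside 39186 and 92120 for Tcp1.

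Promoters of members with the largest and the smallest fall are printed because the genes fell together yet unequally. RefSeq promoters (GRCm38.p6, 250 bases before to 50 bases after a start) were at hand for 7 of the 8 genes, with a second start for Cct2 and Cct5, and not for Cct4. Capitals mark matches, on either strand, to the CCAAT box (CCAAT), the GC box (GGGCGG), the E-box (CACGTG), the ETS core (CCGGAA), the TATA box (TATAAA), the NRF1 core (GCGCA directly followed by TGCGC) and heat shock elements (GAANNTTC or TTCNNGAA). The matches in these promoters do not overlap each other. Each sequence runs 5′ to 3′ on the strand of its gene.
Cct3, chr3:88296885-88297184, plus strand: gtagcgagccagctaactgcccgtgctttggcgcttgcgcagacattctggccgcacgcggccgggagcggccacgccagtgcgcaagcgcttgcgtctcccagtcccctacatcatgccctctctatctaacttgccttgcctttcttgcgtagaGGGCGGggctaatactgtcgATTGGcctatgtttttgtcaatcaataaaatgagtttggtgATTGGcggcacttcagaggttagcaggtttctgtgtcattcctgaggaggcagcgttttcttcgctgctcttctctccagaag
Cct6a, chr5:129787106-129787405, plus strand: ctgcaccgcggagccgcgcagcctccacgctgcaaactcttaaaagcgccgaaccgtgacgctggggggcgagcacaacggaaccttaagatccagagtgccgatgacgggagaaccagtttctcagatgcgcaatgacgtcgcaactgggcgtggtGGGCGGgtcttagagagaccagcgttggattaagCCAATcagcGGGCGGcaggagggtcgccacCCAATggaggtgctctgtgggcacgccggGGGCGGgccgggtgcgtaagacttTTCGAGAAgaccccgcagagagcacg
Cct8, chr16:87495820-87496119, minus strand: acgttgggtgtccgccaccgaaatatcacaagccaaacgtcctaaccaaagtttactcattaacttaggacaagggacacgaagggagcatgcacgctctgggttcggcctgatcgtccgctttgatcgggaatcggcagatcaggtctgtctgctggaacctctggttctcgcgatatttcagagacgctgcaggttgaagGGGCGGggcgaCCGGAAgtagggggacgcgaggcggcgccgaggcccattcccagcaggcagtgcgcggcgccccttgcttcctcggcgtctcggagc
Cct2, first start, chr10:117063803-117064102, minus strand: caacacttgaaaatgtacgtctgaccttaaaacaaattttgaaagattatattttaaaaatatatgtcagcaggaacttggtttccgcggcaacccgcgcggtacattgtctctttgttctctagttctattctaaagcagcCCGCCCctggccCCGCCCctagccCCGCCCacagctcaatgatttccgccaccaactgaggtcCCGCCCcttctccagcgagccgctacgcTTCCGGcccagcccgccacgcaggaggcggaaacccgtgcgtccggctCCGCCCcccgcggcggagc

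The GC box, a binding motif of SP1-type factors, was present in all 7 genes (8 of 9 promoters), against 35.7% of the 32851 promoters in the table. The promoters printed hold 1 match in Cct3, 3 in Cct6a, 1 in Cct8 and 5 in the first promoter of Cct2. The CCAAT box, bound by NF-Y, was found in Cct3, Cct6a, Cct7 and Tcp1, in 4 of 9 promoters against 37.4% of all. ETS cores were found in 5 of 9 promoters (14.9% of all), among them those of Cct2 and Cct8. A heat shock element was found in Cct6a, at Cct5 and at the second start of Cct2, where GAANNTTC was in 1 of 9 (7.86% of all) and TTCNNGAA in 2 of 9 (8.52% of all). The NRF1 core was found once, in Cct5 (0.971% of all), and no member promoter held CACGTG (7.15% of all) or TATAAA (13.6% of all). GC content was 55.3% in the Cct3 window, 63.3% in Cct6a, 60.3% in Cct8 and 57.3% in Cct2, against a median of 52.7% over the table. Of the windows not printed, the first of Cct5 lay below that median at 47.3%. The rest ran from 59.3% (Tcp1) to 67.7% (Cct7).

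Most partners of the chaperonin fell as well. Of the 6 prefoldin subunits, 5 were lower and 1 was higher in Carm1 KO (median log2 fold change -0.85, against 0.02 for all tested genes). Among all tested genes, 43.2% were called lower and 44.5% higher. Pfdn2 averaged 30.1 ± 0.583 CPM in Carm1 KO and 81.2 ± 1.05 CPM in Control KO, a 2.69-fold fall. Pfdn6 fell 2.23-fold, Pfdn1 1.89-fold and Pfdn4 1.73-fold, all with groups that did not overlap. Vbp1, another prefoldin subunit, was at 69.9 ± 3.24 CPM in Carm1 KO and 81.9 ± 2.57 CPM in Control KO, and this small difference (log2 fold change -0.23 ± 0.029, adjusted p = 4.8e-09) was not called with upper-quartile factors (-0.02, adjusted p = 0.61). Pfdn5, also known as MM-1, a protein that binds MYC, went the other way, with 237, 223, 218 and 228 CPM in Carm1 KO against 156, 160, 157 and 155 CPM in Control KO (log2 fold change 0.53 ± 0.024, adjusted p = 8.8e-23).

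Among the phosducin-like cochaperones, all 3 tested genes were lower, as were 43.2% of all tested genes. Txndc9, also called PhLP3, was at 51.7 ± 2.21 CPM in Carm1 KO and 83.5 ± 1.93 CPM in Control KO (1.61-fold lower), and Pdcl3 was 1.38-fold lower. Pdcl, which assists the folding of G protein beta subunits, averaged 35.3 ± 1.18 CPM in Carm1 KO and 40.3 ± 1.03 CPM in Control KO (log2 fold change -0.19 ± 0.034, adjusted p = 2.6e-06), and it was not called with upper-quartile factors (0.0253, adjusted p = 0.48) or library totals alone (-0.0297, adjusted p = 0.41). Pdcl2, known from the testis, had no count in any library.

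The paralog Cct6b, which in mammals is known mainly from the testis, was higher while its widely expressed counterpart Cct6a was lower. Cct6b (chromosome 11, 82719250 to 82764321, minus strand) had 1.82, 1.63, 1.22 and 1.18 CPM in Carm1 KO, against 0.127, 0.163, 0.217 and 0.0819 CPM in Control KO. The groups did not overlap (log2 fold change 3.29 ± 0.26, adjusted p = 6.6e-15), but these values rest on 240 counts over the Carm1 KO and 22 over the Control KO libraries. Cct6a had 18523 and 76422 counts in the same order. No 50-base word of the Cct6a transcript occurs in a transcript of Cct6b. Cct8l1, another paralog, had 2 counts in Carm1 KO and 3 in Control KO and was not tested. Of the distant chaperonin-like genes of the Bardet-Biedl group, Bbs12 (1.73-fold) and Mkks (1.28-fold) were lower, and Bbs10 was at 2.88 ± 0.335 CPM in Carm1 KO and 2.51 ± 0.194 CPM in Control KO (adjusted p = 0.087).

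Transcripts of the main clients also fell. Of 12 actin and tubulin genes, 10 were lower and 2 higher (median log2 fold change -0.96). The shares among all tested genes were 43.2% lower and 44.5% higher. Actb, the cytoplasmic beta actin, was at 3390 ± 53.8 CPM in Carm1 KO and 7184 ± 58.5 CPM in Control KO (2.12-fold lower), and Actg1 was 1.52-fold and Tubb5 1.51-fold lower. The alpha tubulins Tuba1b and Tuba4a showed the largest falls of the list, Tuba1b with 127, 123, 118 and 122 CPM in Carm1 KO against 764, 788, 776 and 758 CPM in Control KO (6.30-fold lower) and Tuba4a 6.10-fold lower. Tubb2b instead rose to 14.7 ± 0.496 CPM in Carm1 KO, against 3.14 ± 0.246 CPM in Control KO (4.69-fold). Tubulin and actin genes are families of similar sequence, so the split of reads between their members is uncertain.

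Other known clients showed no common direction, with 5 of 12 higher, 6 lower and 1 not passing (median log2 fold change -0.19). These counts are close to the shares among all tested genes, 44.5% higher and 43.2% lower. Among those with the most reads, the G protein beta subunit gene Gnb2 was 1.44-fold higher, while the transcription factor gene Stat3 and Gnb1 were 1.79-fold and 1.75-fold lower. The WD40 protein Cdc20, an activator of the anaphase-promoting complex, was at 47.5 to 52.4 CPM in Carm1 KO and 18.4 to 21.0 CPM in Control KO (log2 fold change 1.31 ± 0.040), and the mitotic kinase gene Plk1 was at 28.7 ± 0.0911 CPM in Carm1 KO and 8.38 ± 0.244 CPM in Control KO (3.43-fold higher). Wrap53, a telomerase holoenzyme protein, had means of 23.1 ± 1.52 CPM in Carm1 KO and 23.2 ± 1.02 CPM in Control KO (log2 fold change -0.01 ± 0.045, adjusted p = 0.83).

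Other folding machines and another multi-subunit complex were set beside the CCT genes. Hspd1, the subunit of the mitochondrial chaperonin, was at 114 ± 3.38 CPM in Carm1 KO and 593 ± 7.42 CPM in Control KO (5.22-fold lower), and its partner Hspe1 was 2.16-fold lower. All 10 genes of the cytosolic Hsp70 and Hsp90 list were lower, against 43.2% of all tested genes, with a median log2 fold change of -1.30. Hsp90ab1, a cytosolic Hsp90, was at 1606 ± 19.0 CPM in Carm1 KO and 5337 ± 58.2 CPM in Control KO (3.32-fold lower), Hsp90aa1 was 5.21-fold lower, and Hspa8, the constitutive Hsp70, was 1.75-fold lower. Among the others Hsph1, a nucleotide exchange factor for Hsp70, fell 5.79-fold, the cochaperone Stip1 fell 5.37-fold, and the heat shock regulator Hsf1 was at 40.5 ± 1.61 CPM in Carm1 KO and 68.5 ± 0.999 CPM in Control KO. Of 14 genes of the 20S proteasome core, 13 were lower and 1 (Psmb1, 1.28-fold) higher, with a median of -1.07. Of all tested genes, 43.2% were lower and 44.5% higher. The 13 that fell did so by log2 fold changes of -1.58 (Psma7) to -0.92 (Psmb7). No test was made of the difference between lists.

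**Figure D4:**
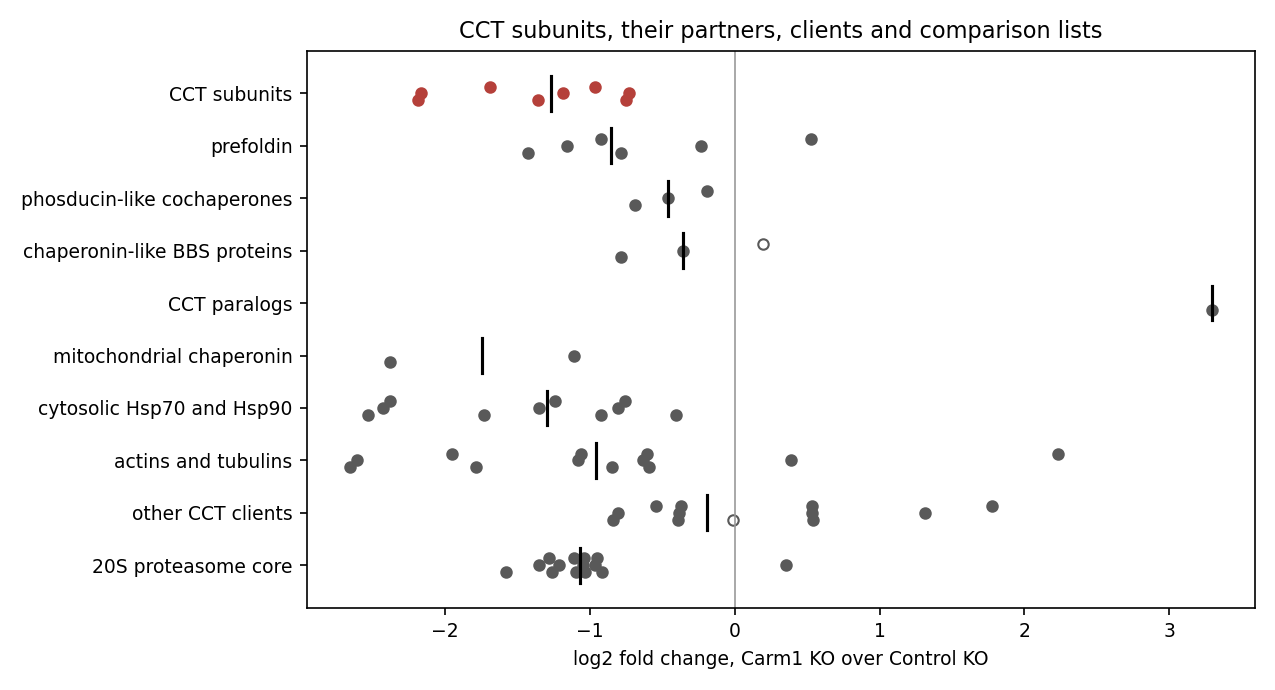
Log2 fold change (Carm1 KO over Control KO) of each tested gene of the CCT subunits (red) and 9 other lists (grey), with open points for genes that did not pass and a black line at each median. All 8 CCT genes lie between -2.19 and -0.73, and Cct6b, the one tested paralog, lies at 3.29.

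The genes whose profile over the 8 libraries was most like the mean of the CCT genes were looked for among 10300 candidates, by the Euclidean distance of centred log2 CPM. Among the closest were Slc25a15, a mitochondrial ornithine carrier (distance 0.047), Tfdp1, the dimerisation partner of E2F factors (0.047), Wdr43, a ribosome biogenesis factor (0.053), and Ddx27, a nucleolar RNA helicase (0.054). Their log2 fold changes ran from -1.39 to -1.36, and the profile is essentially the difference between the groups. The CCT genes themselves are part of that mean and are drawn toward it, unlike the candidates. Among them Tcp1 was closest to the mean profile (0.039). Cct5 followed at 0.28 with 409 candidates closer, and Cct3 was the farthest at 1.14 with 2533 candidates closer.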

How the data were processed

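Poly(A) RNA from 4 Carm1 KO and 4 Control KO libraries, with an integrity number above 9.5, was read as 150 bp pairs, per the labels' protocols. Each deposited file lists 1 whole count per Ensembl gene, beside the exons and a length. RSEM is named as the counter in the labels' protocols and mm10 as the build in the submitters' processing notes. Aligner, annotation release, strand setting and versions were not found in the sources used here, and how the authors treated reads shared by overlapping or similar genes is unknown. The deposited length equals the union of the exons for all 49315 genes, of which 48970 received a symbol from GENCODE M21 (GRCm38).

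Counts were used as deposited. Replicate pairs differed beyond sampling noise (chi-square of 1.45 to 13.5 per degree of freedom). Each library counted once in the test, although this scatter does not show that the libraries of a group are independent. Genes were kept by filterByExpr (14970), scaled by TMM factors (1.05 to 1.07 in Carm1 KO, 0.938 to 0.953 in Control KO) and tested two-sided with edgeR 4.0.16 (robust quasi-likelihood F test, R 4.3.3) and Benjamini-Hochberg adjustment at 0.05. A standard error is the size of the log2 fold change over the square root of F. The floor of 3 counts covers counting error only. In simulated counts for this comparison (14970 genes), 84%, 90%, 100% and 100% of genes changed 1.25-, 1.5-, 2- and 4-fold were recovered (50 of each), and 22 of 14770 unchanged genes were called. Only these few genes changed there, as many up as down, and all were drawn above a minimum expected count. The 22 false calls were a larger share of all calls in the simulation than the 0.05 that the adjustment aims at. In the data 87.7% of tested genes were called, so the simulation does not check the scaling where most genes change.

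The 8 members, the 9 lists and the markers were chosen with earlier results of these data known. The rule for naming took all members, lists of up to 8 genes in full, of longer lists the 3 most abundant genes and the 3 largest changes, genes sharing exons with a member, and the 5 genes most like the members' mean, and not all of these are printed. Values of 1 further gene that this rule took are not reported here. Hsf1, Wrap53, Psmb7, Acat2 and Gm11516 lie outside it and were named after their values were seen. Cct3-ps1, named as a sequence copy of Cct3, also lies outside the rule. Alternatives were RLE or upper-quartile factors, library totals, no filter or at least 5 CPM in 4 libraries, DESeq2 1.42.0, limma-voom (limma 3.58.1), a threshold of 1.5-fold, a block for the replicate number, and omission of each library.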

Additional observations from a re-analysis of the deposited data

Results flagged for a closer look

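Of 34 groups of 4 libraries examined for the CCT genes (levels, shares and their sum), 2 had a library far from the other three, where chance gives about 1 in 20. For the Cct8 level in Control KO, the gap of replicate 3 (621 CPM, the others 609 to 611) to its nearest neighbour was 0.859 of the range of the group. For the share of Cct2 in the summed level per kb in Control KO, the gap of replicate 4 (25.3%, the others 25.0%) was 0.938 of the range. Both gaps are small beside the difference to Carm1 KO, where Cct8 was at 187 to 192 CPM and Cct2 made up 34.4% to 34.8%.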

How the results depend on the processing

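The 8 CCT genes were lower under all 17 alternatives, that is in 136 of 136 combinations of a gene and a setting. Their log2 fold changes ran from -2.21 to -0.51, with adjusted p of at most 1.2e-08. The median over all tested genes moved by 0.215 with upper-quartile factors and by 0.160 with library totals. Relative to it the members were at -2.21 to -0.75 with either. Scaling factors shift all genes by nearly the same amount, so these relative values could hardly move and are no further check. Against a 1.5-fold change, 3992 genes were higher and 3444 lower in all, and the counts became 0 prefoldin genes higher, 1 phosducin-like gene lower, 1 chaperonin-like gene lower, 1 actin or tubulin gene higher, 2 other clients higher and 2 lower, and 0 proteasome genes higher. Not every count that changed is listed here. Vbp1, for example, was no longer called among the lower prefoldin genes. Bbs10 was called with upper-quartile factors and with library totals, so that 1 chaperonin-like gene was higher under each. With at least 5 CPM required, 0 paralogs were higher, since Cct6b was no longer tested. The log2 fold change of Pdcl turned to 0.0253 with upper-quartile factors. That of Wrap53 turned to 0.205 with upper-quartile factors and 0.150 with library totals (both called), to 0.0826 with the stricter filter, and ran from -0.0456 to 0.0298 when single libraries were left out. The share of Cct5 no longer overlapped between groups without length or with transcript lengths (18.8% in Carm1 KO and 17.7% in Control KO on the transcript scale), and the other shares kept their direction. Same-numbered libraries did not deviate together (correlations of -0.085 to -0.051). This gives no sign that the replicate number is a pairing, though counting noise could hide one. With the number as a block, all 8 CCT genes were lower, and 6611 genes were higher and 6420 lower in all. The causes of the scaling shifts were not tested. Cct6b rests on 22 counts in Control KO, and Cct8l1 and Pdcl2 had too few counts to be tested.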
